A study of Homo sapiens with 16 samples.

Results

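Transcripts of 7 genes around plasmin formation were followed through phorbol ester treatment of K562, a human leukaemia cell line with erythroid features: the plasminogen activators PLAU and PLAT, the urokinase receptor PLAUR, and the serine protease inhibitors (serpins) SERPINE2, SERPINB2, SERPINB6 and SERPINB8. They were taken by symbol, as 7 of the 35052 genes to which the deposited transcripts could be assigned, and all 7 were among the 17559 genes that passed the low-count filter. All cells were wild type and received 25 nM phorbol 12-myristate 13-acetate (PMA), an activator of protein kinase C that is used to drive these cells toward a megakaryocyte-like state. RNA was taken before treatment (0 h) and 0.5, 1.5 and 3 h into it, then at 6, 24, 48 and 72 h, with fresh medium given after 24 and 48 h. The sequenced libraries, 2 per time point and 16 in all, were made from total RNA after removal of ribosomal RNA. The 0 h libraries are the only control; no vehicle series was used here, so PMA and time in culture cannot be told apart, nor, at 48 and 72 h, the changes of medium. The labels do not say whether the 2 libraries of a time point came from separate cultures, so the p-values measure only the spread between these libraries, which may be technical. In RNA from whole cultures, fewer cells of a kind and less RNA per cell cannot be told apart either.

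The plasminogen system works as a short cascade at the cell surface. Urokinase (PLAU) and tissue plasminogen activator (PLAT) cleave plasminogen to plasmin, which dissolves fibrin and degrades matrix, and the lipid-anchored receptor PLAUR holds urokinase at the membrane. Serpins stop such proteases by an irreversible trap in which the protease cleaves a reactive loop and stays bound: SERPINB2 is an inhibitor of the plasminogen activators, SERPINE2 (protease nexin 1) is an inhibitor of thrombin and urokinase, and the clade B serpins SERPINB6 and SERPINB8 lack a classical signal peptide and act mainly inside cells. Platelets, the product of megakaryocytes, carry both profibrinolytic proteins and inhibitors, which makes the system one of the known outputs of that lineage.

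Promoter sequences are shown for 4 members, because 3 of them (PLAUR, SERPINB2 and SERPINB8) hold the AP-1 motif, the element first described as a phorbol ester response element, while PLAU does not in this window. The stretches come from RefSeq on GRCh38.p14, from windows of 250 bases before each annotated start, and each is cut 10 bases after the first GENCODE transcript start that falls inside the window. Starts upstream of a window were not used for the cut. Those of PLAUR-201, PLAU-203, PLAU-205 and SERPINB2-202 lie upstream of the printed stretches. The PLAUR stretch is chr19:43670341-43670419 on the minus strand, the SERPINB2 stretch chr18:63887455-63887704 and the SERPINB8 stretch chr18:63969831-63969934, both on the plus strand, and the PLAU stretch, from the window next to the start of its main transcript PLAU-201, is chr10:73910882-73911113 on the plus strand. Capitals mark TGANTCA (AP-1) in the first 3 sequences and GGGCGG (SP1) in the PLAU sequence.
PLAUR: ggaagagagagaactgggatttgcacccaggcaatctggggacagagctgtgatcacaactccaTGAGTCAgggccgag
SERPINB2: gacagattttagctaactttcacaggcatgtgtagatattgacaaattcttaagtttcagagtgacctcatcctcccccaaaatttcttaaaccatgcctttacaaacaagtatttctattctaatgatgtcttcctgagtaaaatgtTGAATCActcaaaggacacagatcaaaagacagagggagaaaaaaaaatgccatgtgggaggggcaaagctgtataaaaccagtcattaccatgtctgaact
SERPINB8: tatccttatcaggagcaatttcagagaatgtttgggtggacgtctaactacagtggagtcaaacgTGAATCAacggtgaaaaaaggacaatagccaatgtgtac
PLAU: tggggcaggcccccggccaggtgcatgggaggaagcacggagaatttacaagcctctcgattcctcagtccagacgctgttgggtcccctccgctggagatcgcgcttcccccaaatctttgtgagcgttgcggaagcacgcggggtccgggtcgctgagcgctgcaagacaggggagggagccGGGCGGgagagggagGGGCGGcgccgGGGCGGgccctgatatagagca

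Beside the AP-1 and SP1 letters, the search took GGAAGT for ETS factors, GTGGGCG for EGR factors and AGATAA for GATA factors, as exact letters on both strands; an EGR match can share bases with an SP1 match. Of 35116 windows of the same length, 6.57% held the AP-1 letters, 19.5% the ETS, 8.53% the EGR, 9.17% the GATA and 42.6% the SP1 letters. The 7 genes had 11 windows, for 6 of the genes. PLAT had no window and was not searched. TGAGTCA began 186 bases before the PLAUR start and 28 bases before the SERPINB8 start, and TGAATCA began 102 bases before the SERPINB2 start and 185 bases before the SERPINB8 start. The PLAUR window also held ETS letters at 133 and EGR letters at 90 bases before the start. These distances are from the RefSeq starts. The annotated start of PLAUR-203 lies 181 bases before that of PLAUR, so the ETS and EGR letters lie downstream of it. The SERPINB8 letters at 28 lie downstream of a GENCODE start at 156. None of these letters falls in the printed stretches. Neither PLAU window, nor any window of SERPINE2 or SERPINB6, held the AP-1 letters, and none of the 11 held the GATA letters. EGR letters also lay in a SERPINE2 window and a SERPINB6 window, 52 and 50 bases before the start. SP1 letters lay in windows of both genes as well. These are matches of letters in a short window and say nothing of what binds there.

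The deposited tables held 27285773 to 54056289 estimated reads per library, and a floor of 3 reads stood for 0.0623 to 0.128 CPM. CPM here is a read count scaled to a common library size after TMM (trimmed mean of M-values) normalisation, and TPM is the deposited transcript abundance, which is per length. Libraries of one time point differed by more than counting noise (chi-square per gene 7.83 to 46.2), most at 0 h, where the difference between the 2 libraries followed the GC content of genes (Pearson r = -0.73 across 9983 genes, which are not independent). At 0.5 h the change against 0 h itself followed GC content (r = -0.76), and at 1.5 h less so (r = -0.43). Erythroid markers (HBG1, HBG2, TAL1, GATA1) summed to 2049 to 4470.3 TPM in the 16 libraries. Megakaryocyte markers (ITGA2B, ITGB3, THBS1, VWF) went in sum from 36.1 and 44.2 TPM at 0 h to 1690.5 and 1772 TPM at 72 h. The genes in these sums did not move together, by the edgeR calls described below. ITGB3, THBS1 and VWF were called higher from 3 h on, while ITGA2B was called lower at 6, 24 and 48 h. GATA1 was called lower from 1.5 to 24 h, and HBG1 and HBG2 were called lower at 24 h. TAL1 was called lower from 1.5 to 6 h and higher from 24 h on. Summed fibroblast markers went from 13.4 and 13.7 TPM at 0 h to 82.2 and 122 TPM at 72 h with LUM at 0 in all libraries, lymphocyte markers from 24.3 and 36.1 to 60.3 and 75.5 TPM, monocyte and macrophage markers from 135 and 135 to 87.1 and 88.6 TPM, and endothelial markers stayed at 1.27 to 3.76 TPM; the part of other cell types in the results below was not tested.

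Of the 7 genes, PLAU, PLAT, PLAUR, SERPINB2 and SERPINB8 rose, SERPINB6 fell, and SERPINE2 showed no called change against 0 h at any time. Calls are edgeR quasi-likelihood tests at a Benjamini-Hochberg adjusted p under 0.05 over all tested genes. At 0.5 h 0 of 7 genes were called, with 0.171% of all genes called (0.165% higher and 0.0057% lower); 1 of the 7, PLAUR, had an unadjusted p under 0.05. DESeq2 called 0 of them as well. At 1.5 h 4 of 7 were called against 17.1% of all genes: PLAU, PLAUR and SERPINB8 higher and SERPINB6 lower. From 3 h on the same 6 genes were called at each time, 5 higher and 1 lower, while the share of all genes called was 42% at 3 h, 57.2 and 58.3% at 6 and 24 h, and 54.3 and 58.6% at 48 and 72 h. A call was thus common at these times, and the sizes say more than the count. The median log2 fold change of the 7 genes was 3.04 at 3 h, 1.08 and 2.1 at 6 and 24 h, and 2.24 and 1.80 at 48 and 72 h, with medians over all tested genes between -0.03 and 0.00. These later medians are the same with SERPINB2 at its lower bound.

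**Figure D1:**
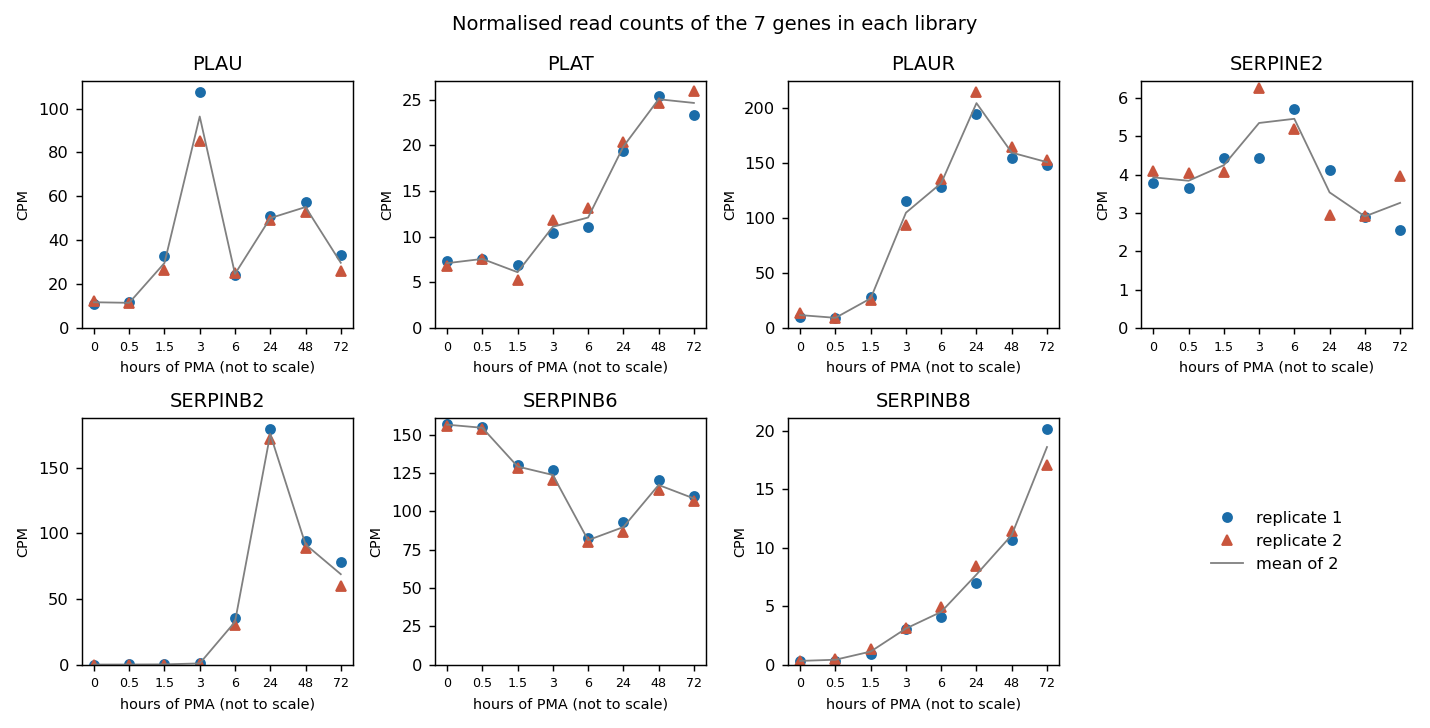
Normalised read counts (CPM, linear axes from 0) of the 7 genes in each library against hours of PMA, shown at equal spacing; circles are replicate 1, triangles replicate 2 and the line joins the means of the 2. PLAU has a peak at 3 h (85.1 and 108 CPM) and a second, lower rise at 24 and 48 h, SERPINB2 is near 0 until 3 h and highest at 24 h, and SERPINB8 is highest at 72 h.

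The neighbouring time points placed the steps. Between 0.5 and 1.5 h 3 of 7 genes rose (PLAU, PLAUR, SERPINB8; 5.77% of all genes were called, 4.11% higher and 1.67% lower), and between 1.5 and 3 h 5 rose (PLAU, PLAT, PLAUR, SERPINB2, SERPINB8; 25.1%, 13% higher and 12.1% lower). Between 3 and 6 h the genes parted: SERPINB2 and SERPINB8 rose while PLAU and SERPINB6 fell (41.2%, 19% higher and 22.1% lower). Between 6 and 24 h the same 5 genes as between 1.5 and 3 h rose and SERPINE2 fell (56.6%, 30.8% higher and 25.8% lower). Between 24 and 48 h SERPINB2 fell and SERPINB6 rose (15%, 8.88% higher and 6.12% lower), and between 48 and 72 h PLAU alone of the 7 was called, lower (1.47%, 1.14% higher and 0.325% lower). Over the whole course all 7 differed between time points, as did 82.9% of all genes. For SERPINE2 this call had an adjusted p of 0.0229 by edgeR, which was 0.122 with libraries scaled to total counts and over 0.05 also with a GC trend removed and without 1 of 3 libraries (6 h replicate 1, 48 h replicate 1 or 48 h replicate 2).

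**Figure D2:**
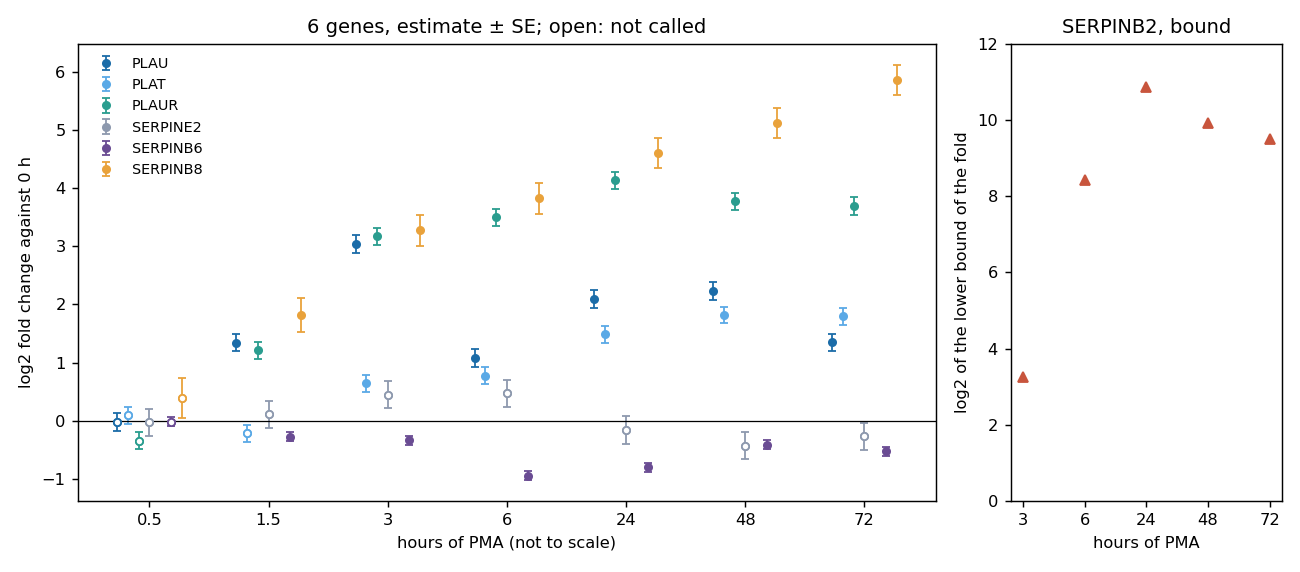
Left, log2 fold change against 0 h with its standard error for 6 genes at each time (equal spacing), filled where called and open where not. Right, the log2 of the lower bound of the SERPINB2 fold from 3 h on, computed against 3 reads per library because 0 h held 0 and 2 reads. SERPINB8 is highest at the last time, PLAUR at 24 h, PLAU at 3 h, and SERPINB6 lies under 0 at every time.

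PLAU, on chromosome 10 (GRCh38 positions 73909177 to 73917497, plus strand), encodes urokinase. Its level was 10.96 and 12.4 CPM in the 0 h libraries, 11.7 and 11.2 in the 0.5 h libraries, 33.0 and 26.2 in the 1.5 h libraries, and 108 and 85.1 in the 3 h libraries. It then stood at 24.3 and 24.9 CPM in the 6 h libraries, 51.1 and 49.1 in the 24 h libraries, 57.4 and 52.8 in the 48 h libraries, and 33.3 and 26.1 in the 72 h libraries. Both libraries of every time from 1.5 h on lay above both 0 h libraries, and the 3 h libraries lay above all others. The log2 fold change against 0 h was 1.34 (SE 0.15, edgeR adjusted p = 6.13e-05) at 1.5 h and 3.04 (SE 0.16, adjusted p = 3.77e-09) at 3 h, an 8.25-fold higher mean.

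Urokinase transcripts then fell by 1.97 on the log2 scale from 3 to 6 h (SE 0.15, edgeR adjusted p = 2.2e-07). They rose by 1.02 from 6 to 24 h (SE 0.15, adjusted p = 4.78e-05), so the course had a valley at 6 h between a sharp early peak and a broad late one. The 24 and 48 h libraries did not overlap, but their difference of 0.14 (SE 0.14, adjusted p = 0.568) was not called. The last step, from 48 to 72 h, was a fall by 0.89 (SE 0.14, adjusted p = 0.00773); it was not called without 48 h replicate 1, without 48 h replicate 2, without 72 h replicate 2 or in a fit of the 2 groups alone. C10orf55, which overlaps PLAU on the opposite strand, held 2 to 34 reads per library, against 357 to 3930 for PLAU; whether the quantification used strand is not stated.

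PLAT, on chromosome 8 (42175233 to 42207724, minus strand), encodes tissue plasminogen activator, the activator that works best on fibrin. Its level was 7.37 and 6.82 CPM in the 0 h libraries, 7.55 and 7.57 in the 0.5 h libraries, 6.95 and 5.26 in the 1.5 h libraries, and 10.4 and 11.8 in the 3 h libraries. It went on to 11.1 and 13.1 CPM in the 6 h libraries, 19.4 and 20.4 in the 24 h libraries, 25.4 and 24.7 in the 48 h libraries, and 23.3 and 26.0 in the 72 h libraries. The libraries from 3 h on all lay above the 0 h libraries, without the early peak of PLAU. The log2 fold change was 0.64 at 3 h (SE 0.14, edgeR adjusted p = 0.00252), 1.49 at 24 h (SE 0.14, adjusted p = 8.85e-07) and 1.80 at 72 h (SE 0.14, adjusted p = 1.18e-07). Under total-count scaling the change at 3 h was 0.36, with an adjusted p of 0.0817, and in a fit of the 2 groups alone it was 0.63 with an adjusted p of 0.0591, so that the call was lost in both.

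The gene-level change of PLAT was smaller than that of its coding transcripts. Transcripts annotated as protein coding held 0.438 and 0.636 TPM at 0 h and 12.6 and 12.6 TPM at 72 h, a 23.4-fold higher mean. Transcripts annotated as retaining an intron, chiefly PLAT-208, held 3.27 and 2.52 TPM at 0 h and 1.84 and 3.63 TPM at 72 h, with means of 2.32 to 3.57 TPM over the 8 times. The coding share of the gene's TPM rose from 11.8 and 20.1% at 0 h through 40.4 and 37.4% at 6 h to 87.2 and 77.6% at 72 h, and the libraries from 24 h on lay above all earlier ones. A fit on reads of protein-coding transcripts only, chosen after seeing the data, gave log2 fold changes of 1.83 at 3 h (SE 0.20, edgeR adjusted p = 1.22e-05), 2.34 at 6 h (SE 0.20), 4.09 at 24 h (SE 0.19) and 4.51 at 72 h (SE 0.20, adjusted p = 9.53e-10), against 0.64, 0.77, 1.49 and 1.80 for all transcripts. In that fit PLAT also rose between 3 and 6 h, by 0.52 (SE 0.17, adjusted p = 0.0275). The coding transcripts had only 23 and 30 reads at 0 h, and the split between transcripts of a gene is an estimate.

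**Figure D3:**
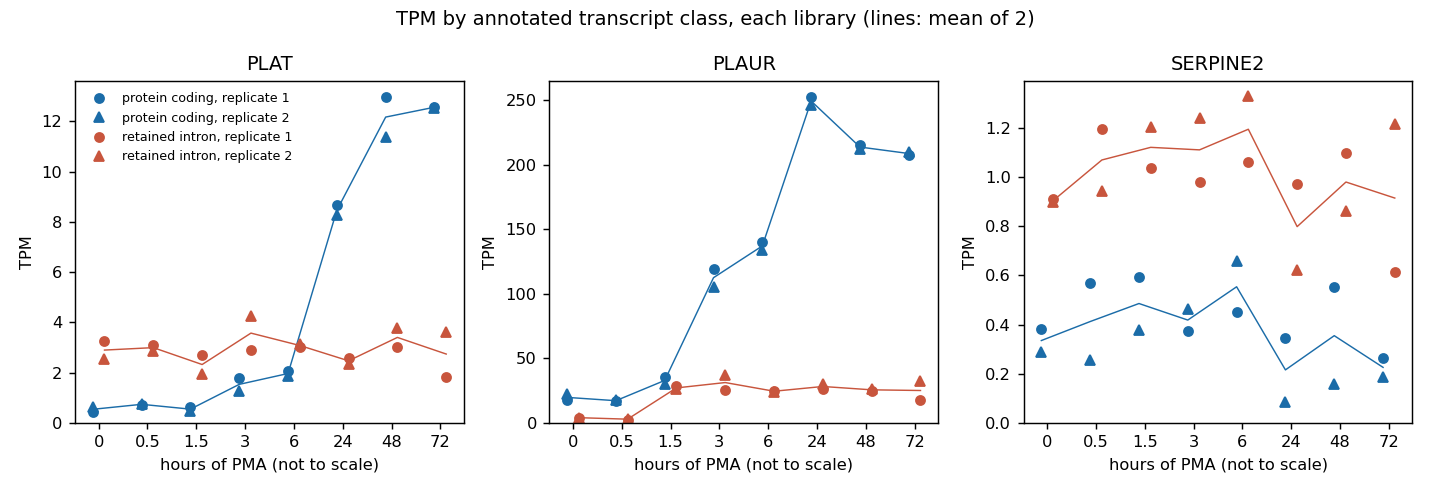
TPM of transcripts annotated as protein coding (blue) and as retaining an intron (red) for PLAT, PLAUR and SERPINE2 in each library (circles replicate 1, triangles replicate 2, lines joining means) against hours of PMA at equal spacing, axes from 0. Coding PLAT passes the retained-intron level between 6 and 24 h, both PLAUR classes step up at 1.5 h but only the coding class goes on rising, and SERPINE2 stays mostly in the retained-intron class.

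PLAUR, on chromosome 19 (43646095 to 43670547, minus strand), encodes the urokinase receptor. Its level was 9.73 and 13.6 CPM in the 0 h libraries, 8.87 and 9.46 in the 0.5 h libraries, 28.3 and 25.5 in the 1.5 h libraries, and 116 and 94.1 in the 3 h libraries. Later it was 128 and 135 CPM in the 6 h libraries, 195 and 215 in the 24 h libraries, 155 and 165 in the 48 h libraries, and 149 and 153 in the 72 h libraries. From 1.5 h on all libraries lay above both 0 h libraries, and the receptor kept its level at 6 h, where urokinase fell. The log2 fold change was 1.21 at 1.5 h (SE 0.14, edgeR adjusted p = 9.5e-05), 3.17 at 3 h (SE 0.15, adjusted p = 1.47e-09), 4.14 at 24 h (SE 0.15, adjusted p = 4.84e-11) and 3.70 at 72 h (SE 0.15, adjusted p = 1.07e-10). The 24 h mean was 17.6-fold that of 0 h.

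The 0.5 h libraries of PLAUR lay below both 0 h libraries, by 0.35 on the log2 scale (SE 0.15, edgeR adjusted p = 0.199), which was not called. Without 0 h replicate 1 this difference was called, at -0.56 (adjusted p = 0.019). The GC trend between the 2 libraries of 0 h is given above; its part in this difference was not tested. The step from 3 to 6 h was 0.33 (SE 0.13, adjusted p = 0.0598) and that from 24 to 48 h -0.36 (SE 0.13, adjusted p = 0.0836); neither was called, although the libraries did not overlap. They were called in 6 and 4 of 16 alternatives, respectively.

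At 1.5 h the estimated makeup of PLAUR transcripts changed before the main rise. As for PLAT, the split between transcripts is an estimate. Whether unspliced RNA in these total RNA libraries enters the retained-intron class was not tested. Retained-intron transcripts went from 2.51 and 3.10 TPM at 0.5 h to 28.2 and 25.9 TPM at 1.5 h, when they held 43.9 and 46.5% of the gene's TPM. Coding transcripts went from 16.8 and 17.5 TPM to 35.9 and 29.8 TPM over the same step, and then to 119.6 and 105 TPM at 3 h and 253 and 247 TPM at 24 h. Retained-intron TPM had means of 24.5 to 31.2 from 1.5 h on, and its share was 7.92 to 13.3% in the libraries of 24 h and later. Within the coding class PLAUR-203, whose annotated start lies inside the AP-1 letters printed above, held 24.7 to 32.9% of the gene's TPM up to 1.5 h and 52.7 to 72.3% from 3 h on, with no overlap. Counted on coding transcripts only, the log2 fold change at 1.5 h was 0.88 (SE 0.14, edgeR adjusted p = 0.0021), lower than the 1.21 of all transcripts, and at 3 h 3.14 (SE 0.15).

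SERPINE2, on chromosome 2 (223975112 to 224039319, minus strand), encodes protease nexin 1, a secreted inhibitor of thrombin, urokinase and plasmin. Its level was low throughout: 3.77 and 4.09 CPM in the 0 h libraries, 3.64 and 4.04 in the 0.5 h libraries, 4.43 and 4.07 in the 1.5 h libraries, 4.44 and 6.26 in the 3 h libraries, 5.72 and 5.20 in the 6 h libraries, 4.13 and 2.95 in the 24 h libraries, 2.90 and 2.93 in the 48 h libraries, and 2.56 and 3.97 in the 72 h libraries. The groups overlapped with 0 h at 0.5, 1.5, 24 and 72 h, and lay apart at 3 and 6 h (higher) and 48 h (lower) without a call. With counts derived from TPM the 6 h difference was 0.87 and was called (adjusted p by edgeR 0.024). The largest of these differences was 0.47 at 6 h (SE 0.23, edgeR adjusted p = 0.101). From 6 to 24 h SERPINE2 fell by 0.63 (SE 0.23, adjusted p = 0.0333), a call lost in 5 of 16 alternatives, among them scaling to total counts (highest adjusted p 0.211) and leaving out either 6 h library or 24 h replicate 2.

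Most SERPINE2 signal was not assigned to coding transcripts, by an estimated split with the same limits as for PLAUR. Retained-intron transcripts, chiefly SERPINE2-208, held 63.7 to 88.0% of its TPM in the 16 libraries. Coding transcripts held 0.0853 to 0.657 TPM and 3 to 23 reads. The coding-only fit called 1 difference, between 6 and 24 h, at -2.08 (SE 0.56, edgeR adjusted p = 0.0064) from 17 and 20 reads against 8 and 6.

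SERPINB2, on chromosome 18 (63871692 to 63903890, plus strand), encodes plasminogen activator inhibitor 2, an inhibitor of urokinase that is largely kept inside cells. It held 0 and 2 reads in the 0 h libraries, 3 and 2 in the 0.5 h libraries, 12 and 0 in the 1.5 h libraries, and 44 and 18 in the 3 h libraries. These were 0.336 and 0 CPM at 1.5 h and 1.21 and 0.587 CPM at 3 h. It then stood at 35.3 and 29.8 CPM in the 6 h libraries, 179 and 172 in the 24 h libraries, 94.5 and 88.5 in the 48 h libraries, and 78.1 and 59.5 in the 72 h libraries. Both libraries of 3 h lay above all earlier libraries, and those of 24 h above all others.

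Against a floor of 3 reads per library at 0 h, the 3 h level of SERPINB2 was at least 9.51-fold higher (adjusted p by edgeR 0.00117), the 6 h level at least 345-fold higher (adjusted p = 2.39e-09) and the 24 h level at least 1860.3-fold higher (adjusted p = 1.28e-10). The bounds were at least 970.0-fold at 48 h and at least 729.9-fold at 72 h. From 3 to 6 h the log2 difference was 5.14 (SE 0.33, adjusted p = 5.03e-08), the largest step of any of the 7 genes between neighbouring times, while PLAU fell over the same interval. From 24 to 48 h SERPINB2 fell by 0.94 (SE 0.22, adjusted p = 0.0124); this call was lost without any 1 of the 4 libraries of those times, with DESeq2, and at an adjusted p under 0.01 (highest adjusted p 0.109). The rise from 1.5 to 3 h was not called without 1.5 h replicate 2 or without 3 h replicate 1 (highest adjusted p 0.173). The values at 1.5 h rest on 12 reads in 1 library and 0 in the other, and without 1.5 h replicate 1 the fitted change turned negative. SERPINB10, whose span overlaps that of SERPINB2 on the same strand, held 10 to 20 reads in each library.

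SERPINB6, on chromosome 6 (2948159 to 2972165, minus strand), encodes an intracellular inhibitor that blocks cathepsin G, a protease of myeloid granules. It was the member with the most transcripts before treatment, at 157 and 156 CPM in the 0 h libraries, 155 and 154 in the 0.5 h libraries, 130.5 and 128 in the 1.5 h libraries, and 127 and 121 in the 3 h libraries. It reached its lowest level at 6 h, with 82.4 and 80.0 CPM, and was 93.02 and 86.5 in the 24 h libraries, 121 and 114 in the 48 h libraries, and 110.0 and 107 in the 72 h libraries. All libraries from 1.5 h on lay below both 0 h libraries. The log2 fold change was -0.95 at 6 h (SE 0.077, edgeR adjusted p = 1.34e-07), -0.80 at 24 h (SE 0.076, adjusted p = 7.81e-07) and -0.53 at 72 h (SE 0.076, adjusted p = 3.77e-05).

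At 1.5 and 3 h the fall of SERPINB6 was small. It was -0.28 at 1.5 h (SE 0.075, edgeR adjusted p = 0.0246), a call lost in 8 of 16 alternatives, among them leaving out 0 h replicate 2 or either 1.5 h library, and -0.34 at 3 h (SE 0.076, adjusted p = 0.00248), lost in 3. On coding transcripts only, the 1.5 h value was -0.14 (SE 0.079, adjusted p = 0.252) and the 3 h value -0.20 (SE 0.079, adjusted p = 0.0555). Retained-intron transcripts of SERPINB6 went from 17.2 and 15.7 TPM at 0 h to 10.1 and 8.55 TPM at 1.5 h and 5.17 and 7.48 TPM at 3 h. From 24 to 48 h SERPINB6 rose by 0.39 (SE 0.076, adjusted p = 0.00376), a call lost without 24 h replicate 2 or without 48 h replicate 1. At 48 and 72 h it was still below 0 h, as at every time from 1.5 h.

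SERPINB8, on chromosome 18 (63969925 to 64019779, plus strand), encodes an intracellular serpin known as an inhibitor of the proprotein convertase furin. It held 0.307 and 0.322 CPM (10 reads each) in the 0 h libraries, 0.317 and 0.516 in the 0.5 h libraries, 0.924 and 1.31 in the 1.5 h libraries, and 3.07 and 3.10 in the 3 h libraries. It went on to 4.10 and 4.92 CPM in the 6 h libraries, 7.004 and 8.40 in the 24 h libraries, 10.7 and 11.5 in the 48 h libraries, and 20.1 and 17.1 in the 72 h libraries. From 1.5 h on the libraries of each time lay above those of all earlier times. The log2 fold change was 1.81 at 1.5 h (SE 0.30, edgeR adjusted p = 0.00121), 3.28 at 3 h (SE 0.27, adjusted p = 3.97e-07) and 5.87 at 72 h (SE 0.26, adjusted p = 2.41e-10), a 59.2-fold higher mean.

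Between neighbouring times the calls for SERPINB8 were less steady. The rise from 0.5 to 1.5 h was lost without 0.5 h replicate 1, without 1.5 h replicate 2 and with counts derived from TPM (highest adjusted p 0.112). The step from 3 to 6 h, 0.55 (SE 0.20, edgeR adjusted p = 0.0403), was lost in 7 of 16 alternatives, among them leaving out either 3 h library or 6 h replicate 2, and that from 6 to 24 h, 0.77 (SE 0.19, adjusted p = 0.00378), without 6 h replicate 1 or 24 h replicate 2. The steps from 24 to 48 h, 0.52 (SE 0.18, adjusted p = 0.0743), and from 48 to 72 h, 0.75 (SE 0.18, adjusted p = 0.0637), were not called; they were called in 5 and 6 of 16 alternatives. With counts derived from TPM, the 1.5 h change was not called (adjusted p = 0.0766). All of its TPM fell on protein-coding transcripts. From 6 h on SERPINB8-201, a short transcript that begins downstream of the promoter shown, held 41.0 to 53.5% of the TPM and SERPINB8-202 held 23.9 to 40.7%. HMSD, whose span overlaps the gene on the same strand, held 0 to 14 reads per library.

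Per length, the order of the 7 genes turned over during the course. At 0 h SERPINB6 stood first with 134 TPM, then PLAUR with 23.7, PLAU with 8.56, PLAT with 3.43, SERPINE2 with 1.24, SERPINB8 with 0.280 and SERPINB2 with 0.0265 TPM (means of 2 libraries). At 3 h PLAUR (144 TPM) had passed SERPINB6 (103 TPM), and it stayed first at all later times. At 24 h SERPINB2 was second with 144 TPM, behind PLAUR with 279 TPM and ahead of SERPINB6 with 72.4 and PLAU with 32.7 TPM. At 72 h the order was PLAUR (234 TPM), SERPINB6 (100.2), SERPINB2 (63.0), PLAU (21.4), PLAT (15.3), SERPINB8 (14.9) and SERPINE2 (1.14 TPM). Neighbours in the order were apart in both libraries at each time, except SERPINB8 (1.55 TPM) and SERPINE2 (1.53 TPM) at 3 h, and PLAT and SERPINB8 at 72 h.

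The levels of PLAU and SERPINB2 peaked at different times. Coding PLAU was at 55.4 ± 7.66 TPM (SD, n = 2) at 3 h, when SERPINB2 was at 0.755 ± 0.189 TPM; at 6 h the order was reversed, with PLAU at 13.2 ± 0.773 and coding SERPINB2 at 22.6 ± 4.73 TPM. At 24 h SERPINB2 stood at 142 ± 15.7 TPM against 32.0 ± 3.37 TPM for PLAU.

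For each member, the 3 tested genes with the most similar course were taken by Pearson correlation of log2 CPM over the 16 libraries, as a description without a test, since the libraries share 8 time points. For PLAU these were USP27X (r = 0.96), PHLDB1 (0.93) and MAGEA6 (0.92). For PLAT they were EPB41L1, SHANK1 and ITGAX (each 0.98), and for PLAUR ZC2HC1C, CCR7 and PRSS22 (each 0.99). For SERPINB2 they were HIVEP3, DCLK1 and F2RL1 (each 0.99), for SERPINB8 TLR6 (0.99), ANKRD33 (0.99) and LIMA1 (0.98). SERPINB6 was most like C21orf58 (0.97), CENPM (0.96) and STING1 (0.96), and SERPINE2 most like CCDC158 (0.95), LRRC27 (0.94) and SVOP (0.94).

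Among 32 other genes of the plasminogen system, 26 passed the filter. At 0.5 h edgeR and DESeq2 each called 0 of them, and 6 had an unadjusted p under 0.05 by edgeR. At 1.5, 3 and 6 h the numbers called higher were 3, 9 and 11 and those called lower 1, 2 and 4. At 24, 48 and 72 h the numbers called higher were 14, 14 and 15 and those called lower 6, 5 and 4. The share of the 17559 tested genes called higher was 9.05, 21.5, 27.8, 31.7, 30.2 and 31.7% at these times, and the share called lower 8.05, 20.5, 29.4, 26.6, 24.1 and 26.9%. The median log2 fold change of the 26 genes was 0.41 at 6 h (0.23 with SERPIND1 and A2M at their bounds) and 1.37 at 72 h with or without bounds, against 0.00 and -0.03 for all tested genes. Those called higher at 72 h include the integrin subunits ITGAV, ITGA3, ITGB1 and ITGB3, the plasminogen-binding pair ANXA2 and S100A10, LRP1, a scavenger receptor that takes up complexes of activators with inhibitors, MRC2, a collagen receptor that associates with PLAUR, and thrombomodulin (THBD). MRC2 was called lower at 6 h and higher from 24 h on. The receptors LRP2 and VLDLR, of the same family as LRP1, were called lower at 72 h: on the log2 scale LRP2 stood at -1.22 against 0 h (adjusted p by edgeR 0.00303) and VLDLR at -1.90 (adjusted p = 3.78e-07). Plasminogen itself (PLG) held 4 reads or fewer at 0 h and was called higher at 1.5, 3 and 6 h, with 0.795 and 1.34 CPM at 3 h.

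SERPIND1, heparin cofactor II, a thrombin inhibitor, had the largest called rise at 6 h among the 26 genes. It held at most 1 read per library at 0 h, 4.87 and 3.93 CPM at 6 h and 15.0 and 14.8 CPM at 72 h. Its 6 h level was at least 46.6-fold higher (adjusted p by edgeR 5.92e-09) and its 72 h level at least 158-fold higher (adjusted p = 2.5e-10). A2M, a broad trap for proteases in plasma, had the largest rise at 72 h: it held at most 1 read per library at 0 h, and its level was at least 22.4-fold higher by 24 h and at least 815-fold higher by 72 h (87.9 and 65.7 CPM; adjusted p = 2.62e-11). F12, the contact factor that can start plasmin formation through kallikrein, had the largest fall at 6 h, from 6.199 and 9.24 CPM to 1.41 and 1.35 (log2 fold change -2.48, SE 0.33, adjusted p = 1.59e-05). SERPINC1, antithrombin, had the largest fall at 72 h, from 3.62 and 4.31 CPM to 0.084 and 0.12 CPM (4 reads or fewer; adjusted p = 3.98e-08). ENO1, a glycolytic enzyme that also binds plasminogen at cell surfaces, had the highest mean TPM, with 1592 TPM at 0 h and 2166 at 24 h, and was called higher at 3, 6 and 24 h.

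**Figure D4:**
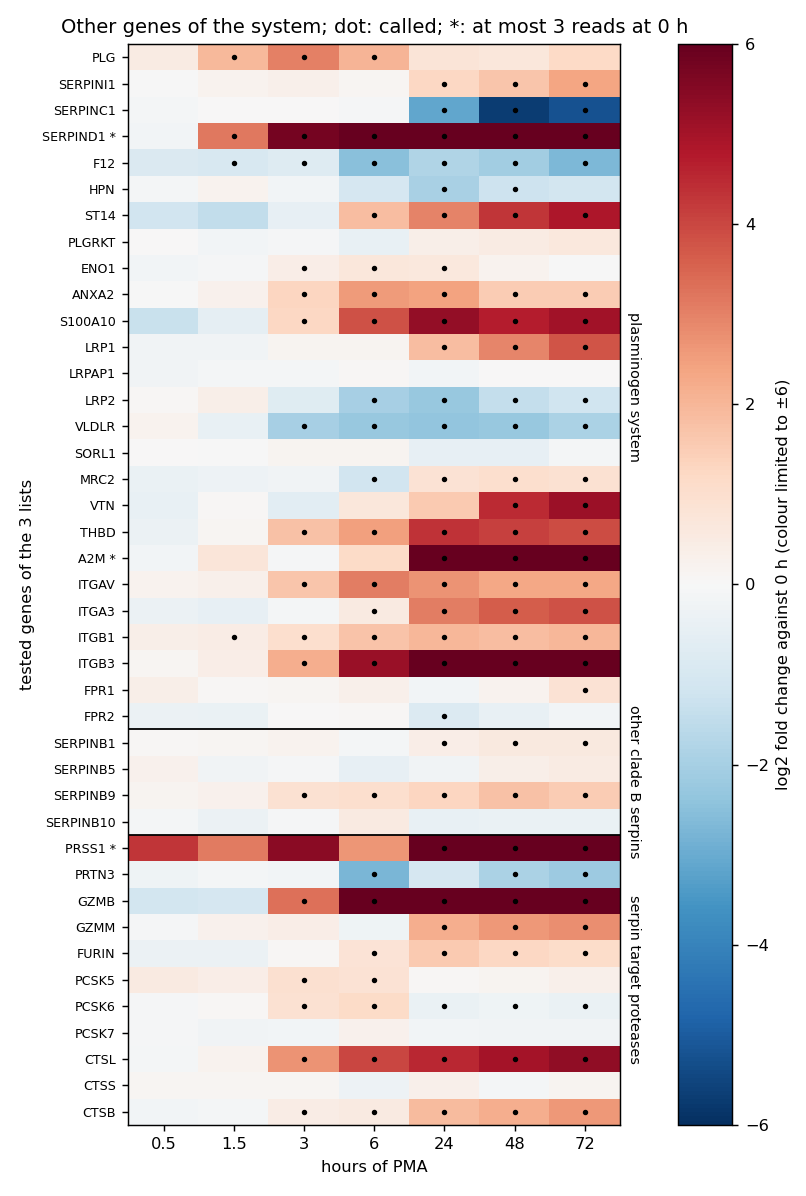
Log2 fold change against 0 h (colour, limited to 6 either way) of the tested genes of the 3 other lists at each time; a dot marks a called difference, and an asterisk marks genes with at most 3 reads at 0 h (SERPIND1, A2M, PRSS1), whose fitted values depend on the prior count. ITGB3 and CTSL rise by 3 h and stay high, while VLDLR, F12 and SERPINC1 are blue at late times.

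Of 10 other clade B serpins, 4 passed the filter, and 1 was called higher at 3 and 6 h and 2 from 24 h on, none lower, where 21.5 to 31.7% of all tested genes were called higher; 1 of 4 is near that share. At 0.5 h edgeR and DESeq2 each called 0 of the 4, with 0 at an unadjusted p under 0.05; at 1.5 h edgeR called 0, with 1 at an unadjusted p under 0.05, and DESeq2 called 1. SERPINB9, the intracellular inhibitor of granzyme B, rose from 77.4 and 75.1 CPM in the 0 h libraries to 149 and 159 in the 6 h libraries and 224 and 214 in the 72 h libraries (log2 fold change 1.52, SE 0.087, edgeR adjusted p = 3.84e-09). SERPINB1, an inhibitor of neutrophil proteases with the highest mean TPM of this list, rose later, from 70.4 and 73.4 CPM at 0 h to 117 and 95.8 at 72 h (0.56, SE 0.095, adjusted p = 0.000167). Of the tested clade B serpins, SERPINB2 and SERPINB8 included, SERPINB6 alone was called lower against 0 h in the fit with TMM factors. SERPINB1 was called lower too at 6 h under total-count scaling (-0.48, adjusted p by edgeR 0.00011) and with the GC trend removed (-0.21, adjusted p = 0.0133).

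Of 17 proteases that these serpins are known to inhibit or that share their compartments, 11 passed the filter. At 0.5 and at 1.5 h edgeR and DESeq2 each called 0, and 1 had an unadjusted p under 0.05 by edgeR. At 3 h 5 were called higher and 0 lower, at 6 and 24 h 6 higher and 1 lower, and at 48 and 72 h 6 higher and 2 lower. Of all tested genes, 21.5% were called higher and 20.5% lower at 3 h, and 27.8 to 31.7% higher and 24.1 to 29.4% lower from 6 h on. GZMB, granzyme B, held 4 and 0 reads in the 0 h libraries, 15.9 and 16.1 CPM in the 6 h libraries and 338 and 357 CPM in the 72 h libraries (edgeR adjusted p = 1.17e-12); no fold is given against so few reads. CTSL, a lysosomal protease with the highest mean TPM of the list, rose from 65.5 and 79.4 CPM in the 0 h libraries to 1139 and 1220 in the 6 h libraries and 3034 and 2729 in the 72 h libraries (5.31, SE 0.14, adjusted p = 1.23e-12). PRTN3, proteinase 3, was the gene with the largest fall, from 0.276 and 0.290 CPM at 0 h (9 reads at most) to 0.0427 and 0.0354 CPM at 6 h (adjusted p = 0.00698). FURIN, the known target of SERPINB8, was called higher from 6 h on, and CTSG, the known target of SERPINB6, fell under the filter with 0 reads in all 16 libraries.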

How the data were processed

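RNA of 16 libraries from PMA-treated K562 cells was quantified per transcript by the authors. Per the file headers, the values are estimated counts (reads per transcript, not whole and not normalized) and TPM, with the column names that Salmon writes. The submitters' processing notes name Salmon, Trim Galore 0.4.3 and HISAT2 2.1.0, and the builds hg19 and hg38; which build and transcript set the tables use, and whether strand was used, is not given in the sources used here.

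Transcripts were assigned to genes by Ensembl identifier with GENCODE release 29 (GRCh38), from which all gene coordinates come: 167027 of 177456 (94.1%) matched, and the rest held 3.01 to 3.75% of a library's reads. Estimated counts were summed per gene and rounded. Genes were filtered with filterByExpr and tested with edgeR 4.0.16 in R 4.3.3 (TMM factors 0.854 to 1.139, quasi-likelihood test, all 8 time points in 1 fit, edgeR's default prior count, called at a Benjamini-Hochberg adjusted p under 0.05). Standard errors come from the same fit, CPM uses the TMM-scaled totals, and the code was tested on simulated data. Folds against at most 3 reads are bounds; floors and bounds cover counting error only. The gap between length and effective length, a proxy of fragment length, was 210 to 221 nt in replicate 1 and 229 to 248 nt in replicate 2, except 199 nt at 0 h.

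The members and lists were chosen with earlier results of these data known. Some genes of the lists are not reported here and enter no list count, median or marker sum. Named genes were the 7 members; of each other list the largest called rise and fall at 6 and 72 h and the highest mean TPM; and, for each member, the 3 most correlated genes among those whose mean CPM reached 5. Other list members named in the text were chosen after their values were seen. The alternatives were other size factors, total-count scaling, looser and stricter low-count filters, DESeq2 1.42.0, counts derived from TPM, fits of 2 groups, a replicate block, removal of a GC trend, an adjusted p under 0.01, and leaving out each library. The fit on protein-coding transcripts was added after seeing the data.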

Additional observations from a re-analysis of the deposited data

Results flagged for a closer look

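Changes against 0 h differed between neighbouring time points, by a direct edgeR test of the 2 times, in 21 cases over 6 steps. From 0.5 to 1.5 h the log2 difference was 1.37 for PLAU, 1.55 for PLAUR and 1.42 for SERPINB8. From 1.5 to 3 h it was 1.70 for PLAU, 0.86 for PLAT, 1.96 for PLAUR, 2.38 for SERPINB2 and 1.47 for SERPINB8. From 3 to 6 h it was -1.97 for PLAU, 5.14 for SERPINB2, -0.61 for SERPINB6 and 0.55 for SERPINB8. From 6 to 24 h it was 1.02 for PLAU, 0.72 for PLAT, 0.64 for PLAUR, -0.63 for SERPINE2, 2.43 for SERPINB2 and 0.77 for SERPINB8. From 24 to 48 h it was -0.94 for SERPINB2 and 0.39 for SERPINB6, and from 48 to 72 h -0.89 for PLAU. The adjusted p-values of these 21 differences ran from 5.03e-08 (SERPINB2, 3 to 6 h) to 0.0403 (SERPINB8, 3 to 6 h).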

How the results depend on the processing

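Of 55 called member differences, 43 kept their call in each alternative that could be run and 12 lost it in at least 1; 11 of 36 uncalled ones were called in at least 1. Another count took 1619 recomputed values, which include the tests over the whole course, where there is no direction. Of these, 1497 kept the side of the threshold and any direction, 34 gained and 53 lost the call, and 35 changed sign. The cause was not tested. No called difference changed sign. Counts of members called that moved by more than 1.5-fold, or from or to 0, follow, with all genes called in the same fit in brackets. The list counts below were picked by the same rule, and smaller moves are not listed. At 1.5 h (main 4, 3003 of 17559 genes) 2 were called with counts derived from TPM (2276 of 17647). From 24 to 48 h (main 2, 2633 of 17559) 4 were called with the GC trend removed (4374) and 4 with GC removal and replicate block (5161). There were 1 at an adjusted p under 0.01 (1321), 1 with DESeq2 (2465) and 5 with only the 2 groups (4444 of 16176). From 48 to 72 h (main 1, 258 of 17559) 2 were called without a filter (659 of 26879), with at least 10 counts in every library (180 of 14014) and with DESeq2 (353). GC removal also gave 2, without (808) and with the block (1249), and only the 2 groups gave 0 (87 of 16446). Leaving out single libraries moved the counts, by any amount, at 0.5 h (through PLAUR), at 1.5 h and between all neighbouring times. The counts against 0 h from 3 h on stayed the same. In the plasminogen list 1 gene was called at 0.5 h without a filter (main 0), where 1538 of 26879 genes were called. Requiring at least 10 counts in every library gave 2 at 1.5 h (main 3 higher and 1 lower), with 2699 of 14014 genes called. It gave 13 for 24 h (main 14 higher and 6 lower; 8870 genes called) and 11 for 48 h (main 14 higher and 5 lower; 7904). This strict filter takes genes with few reads, such as SERPIND1, A2M and, in the protease list, GZMB, out of the test. Fewer list genes could thus be called. In the protease list scaling to total counts gave 1 at 1.5 h (main 0) and 3 at 3 h (main 5 higher and 0 lower). It called 3828 and 8598 of 17559 genes at these times. The strict filter gave 5 at 48 and 72 h (main 6 higher and 2 lower at each), with 7904 and 8519 of 14014 genes called. In the clade B list total-count scaling gave 2 at 6 h (main 1) and 1 at 24 h (main 2), with 10595 and 10775 of 17559 genes called. GC removal gave 2 at 6 h, with 10700 genes called.

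Changed signs, as log2 differences, none called. Counts derived from TPM, at 0.5 h: PLAU 0.10, SERPINE2 0.27, SERPINB6 0.0097, SERPINB8 -0.30; SERPINE2 0.11 at 48 h, 0.30 between 24 and 48 h and -0.23 between 48 and 72 h. GC removal alone and with the block: PLAU 0.065 and 0.061 and SERPINB6 0.028 and 0.029 at 0.5 h; SERPINE2 -0.064 and -0.056 at 1.5 h; from 48 to 72 h PLAT 0.019 and 0.018 and PLAUR 0.0079 and 0.0082. Protein-coding transcripts only: SERPINB6 0.034 at 0.5 h; PLAT 0.19 and SERPINE2 -0.13 at 1.5 h; from 48 to 72 h PLAT 0.015 and SERPINE2 -0.12. Total-count scaling: SERPINE2 -0.064 from 3 to 6 h. Leaving out 1 library gave these ranges: PLAU -0.11 to 0.064 and SERPINE2 -0.11 to 0.045 at 0.5 h; SERPINE2 -0.41 to 0.043 at 24 h, -0.61 to 0.015 at 72 h, -0.20 to 0.29 between 3 and 6 h and -0.18 to 0.44 between 48 and 72 h; PLAT -0.11 to 0.053 between 48 and 72 h; SERPINB2 -3.24 to 5.58 at 1.5 h and -4.29 to 2.23 between 0.5 and 1.5 h, lowest without 1.5 h replicate 1.

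Scaling to total counts moved the median log2 fold change of all genes to -0.12 and -0.28 at 1.5 and 3 h, -0.35 and -0.26 at 6 and 24 h, and -0.18 and -0.19 at 48 and 72 h; GC removal moved it to -0.16 at 24 h. Replicate numbers were not taken as pairs: of 28 pairs of time points, 24 had correlated replicate differences over 0.1, from -0.30 to 0.60 across 9983 genes, and at 8 of 8 times the mean correlation with the other times was above 0. With the replicate block, 2 members (PLAU and SERPINB8) were called from 48 to 72 h, with 326 of 17559 genes called. From 0.5 to 1.5 h 4 members were called with it, where SERPINB6 was added, with 1144 genes called. The block changed no other member call. Depth limits SERPINB2 up to 1.5 h, SERPINE2 coding transcripts, SERPINB8 and PLAT coding transcripts at 0 h. Counts in the lists were recomputed under size factors, total-count scaling, both filters and GC removal only.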
